A study of Mus musculus with 9 samples.

Results

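The genes of glycolysis and of the cellular response to low oxygen were followed here in cultured mouse breast cancer cells labelled as knockouts of the long noncoding RNA Malat1 and in cells labelled as wild type. The set holds 37 genes, picked by their known function and matched by symbol among the 19072 gene identifiers in the tables. Of these, 35 had enough counts to be tested, among 13682 tested genes in all. Slc16a3 had at most 0.06 FPKM in any library and Ldhb at most 0.63 FPKM, and neither was tested. The RNA came from 4T1-TGL, a derivative of the 4T1 mammary carcinoma line of BALB/c mice, grown in DMEM/F12. A first Malat1 knockout line (KO1), a second one (KO2) and cells with intact Malat1 (Ctrl) were each sequenced in 3 libraries. The labels do not say how Malat1 was disrupted, whether a knockout line is a single clone, whether replicates were separate cultures, or under which oxygen tension the cells grew. The p-values therefore measure only the spread between these libraries, which may be technical, and a difference between a knockout line and Ctrl cannot be told apart from a difference between cell lines.

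Glycolysis breaks glucose down to pyruvate in the cytosol, and lactate dehydrogenase and the monocarboxylate transporters then dispose of the carbon as lactate, which tumour cells do even with oxygen at hand. When oxygen is short, the prolyl hydroxylases of the EGLN family no longer mark the subunit HIF-1 alpha, encoded by Hif1a, for destruction, and the HIF-1 complex switches on most glycolytic genes together with genes for blood vessel growth, pH control, mitophagy and collagen hydroxylation. Because that switch acts on the protein, the Hif1a transcript does not report HIF-1 activity. The genes below are enzymes and transporters of the pathway, regulators that set its rate, the HIF machinery, and targets of HIF outside glycolysis.

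HIF-1 binds DNA at short elements with the core ACGTG or GCGTG. In the 250 bases before the start of each gene (RefSeq, GRCm38.p6, all listed starts, 35 of the 37 genes matched), ACGTG stood in 22 of 35 genes (62.9%) on either strand. It stood in 18.5% of the 27025 genes with such a window, and in 25.0% of the 10175 tested ones. GCGTG was present in 24 of 35 (68.6%), against 30.9% of all genes and 49.9% of tested ones, and at least 1 of these cores in 32 of 35 (91.4%), against 41.5% and 61.2%. The symmetrical E-box CACGTG, which contains ACGTG on each strand and is bound by Myc-type factors, was present in 6 of 35 (17.1%), against 6.86% and 9.82%. These are matches of letters, not binding sites. A gene with several listed starts counted when any of its windows matched. The set was picked by function and includes known HIF targets, so its higher shares are no independent result. The windows of 6 genes whose values are described below are printed as examples: Hif1a, Pfkfb3 and Aldoc had the largest called changes against Ctrl among genes with a window, and Car9, Bnip3 and Ankrd37 the widest spread between KO1 replicates. For genes with several starts, the first in the RefSeq table is given, and for Hif1a, Pfkfb3 and Ankrd37 that start lies inside the full span of the gene. Sequences run 5′ to 3′ along the gene and end at the base before its start, and capitals mark ACGTG or GCGTG, read on the other strand as CACGT or CACGC. Matches that overlap run together.
Hif1a, chr12:73907617-73907866, plus strand: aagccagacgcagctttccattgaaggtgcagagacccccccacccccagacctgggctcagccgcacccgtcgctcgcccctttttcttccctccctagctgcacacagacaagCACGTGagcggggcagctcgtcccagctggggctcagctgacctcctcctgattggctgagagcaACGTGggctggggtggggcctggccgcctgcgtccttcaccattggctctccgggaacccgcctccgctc
Pfkfb3, chr2:11553930-11554179, minus strand: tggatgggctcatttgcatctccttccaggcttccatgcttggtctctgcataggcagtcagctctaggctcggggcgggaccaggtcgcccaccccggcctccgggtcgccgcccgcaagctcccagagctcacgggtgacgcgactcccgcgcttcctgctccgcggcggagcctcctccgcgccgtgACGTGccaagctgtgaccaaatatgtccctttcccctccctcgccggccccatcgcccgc
Aldoc, chr11:78322823-78323072, plus strand: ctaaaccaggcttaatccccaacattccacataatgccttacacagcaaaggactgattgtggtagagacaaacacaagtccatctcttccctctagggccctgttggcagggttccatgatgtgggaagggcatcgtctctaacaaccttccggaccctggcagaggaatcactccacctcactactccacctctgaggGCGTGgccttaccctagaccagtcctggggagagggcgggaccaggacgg
Car9, chr4:43506776-43507025, plus strand: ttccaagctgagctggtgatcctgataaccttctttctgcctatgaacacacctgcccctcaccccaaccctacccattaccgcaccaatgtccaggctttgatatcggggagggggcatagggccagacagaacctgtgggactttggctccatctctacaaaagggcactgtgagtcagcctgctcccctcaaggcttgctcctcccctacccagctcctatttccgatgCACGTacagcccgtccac
Bnip3, chr7:138909507-138909756, minus strand: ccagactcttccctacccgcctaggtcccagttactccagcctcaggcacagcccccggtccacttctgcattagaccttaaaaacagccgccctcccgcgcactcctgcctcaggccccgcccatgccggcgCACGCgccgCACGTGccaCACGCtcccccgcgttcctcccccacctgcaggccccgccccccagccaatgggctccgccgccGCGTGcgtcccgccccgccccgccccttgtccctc
Ankrd37, chr8:45999851-46000100, minus strand: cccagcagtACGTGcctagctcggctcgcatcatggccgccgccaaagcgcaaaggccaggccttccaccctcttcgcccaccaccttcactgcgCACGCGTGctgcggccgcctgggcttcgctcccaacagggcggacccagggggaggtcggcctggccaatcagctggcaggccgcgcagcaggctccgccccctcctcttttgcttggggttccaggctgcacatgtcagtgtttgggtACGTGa

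Before the genes are taken in turn, some features of the 9 libraries matter. Total expected counts, the estimated reads per gene, ran from 30655924 to 35406395 per library. Levels within 1 gene are given as CPM, counts scaled to library size with TMM factors, and levels between genes as FPKM, which also corrects for transcript length. Malat1 was at 3.88, 3.69 and 2.63 CPM in KO1, 119, 160.1 and 98.1 CPM in KO2, and 510.3, 402 and 474 CPM in Ctrl, so KO2 kept 27.2% of the Ctrl mean and KO1 0.735%. The epithelial keratins Krt8 and Krt18 were abundant in all libraries (204.11 FPKM or more), while Epcam, Cdh1 and Krt19 stayed at or under 0.36 FPKM. Krt7, the remaining epithelial marker, was at 49.0, 53.7 and 51.4 CPM in KO1, 0.655, 0.848 and 0.816 CPM in KO2, and 49.7, 48.2 and 47.8 CPM in Ctrl (KO2 against Ctrl -5.97 on the log2 scale, edgeR adjusted p = 3.5e-11), so it moved against the sum of the list in KO2. The 6 epithelial markers summed to between 832 and 974 FPKM in KO1, 1342 and 1448 in KO2 and 489 and 503 in Ctrl, and the part of that difference in the results below was not tested. All 6 leukocyte and all 5 endothelial markers were under 1 FPKM, and of 6 fibroblast markers only Pdgfra, at 20.2 to 44.6 FPKM, and Dcn, at up to 8.16 FPKM, were not. The fibroblast list summed to between 42.0 and 45.3 FPKM in KO1, 20.4 and 21.5 in KO2 and 50.9 and 52.6 in Ctrl, and its part was likewise not tested. In KO2 replicate 2, the globin genes Hbb-bs and Hba-a1 were at 12.1 and 14.1 FPKM, and the summed erythroid level ran from 0.36 to 28.75 FPKM in KO2, 0.19 to 0.58 in KO1 and 0.16 to 0.18 in Ctrl. Some fibroblast and endothelial markers under 1 FPKM also peaked in that library. In KO2 replicates 1, 2 and 3, expected counts were 1, 66 and 2 for Col3a1, 0, 49 and 1 for Col1a2, and 1, 34 and 0 for Cdh5. The leukocyte markers Ptprc and Cd3e had 0 in each of them. Without that library, 12 of the 35 genes were called in KO2 against Ctrl in place of 13, and 10 in KO2 against KO1 in place of 8. With all 9 libraries, 54.1% and 55.0% of all tested genes were called in those comparisons. The shares without that library are not given here, so these changes in count cannot be called particular to the set.

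A gene was called when the edgeR quasi-likelihood test gave a p below 0.05 after Benjamini-Hochberg adjustment over all 13682 genes. In KO1 against Ctrl, 2 of the 35 genes were higher (Aldoc and Pfkm) and 4 lower (Pfkp, Gapdh, Hif1a and Ddit4). Those 6 are 17.1% of the set, where 30.5% of all tested genes were called, 15.6% higher and 14.9% lower. In KO2 against Ctrl, 4 were higher (Slc16a1, Pfkm, Aldoc and Vegfa) and 9 lower (Pfkp, Eno1, Pdk3, Pfkfb3, Hif1a, P4ha2, Bnip3l, Ndrg1 and Ddit4). That is 37.1% of the set, against 54.1% of all genes, 24.6% higher and 29.5% lower. Between the knockout lines, KO2 was higher than KO1 for Slc16a1 and lower for Hk2, Pfkp, Aldoc, Pdk3, Pfkfb3, Hif1a and P4ha1, or 22.9% of the set, against 55.0% of all genes, 25.5% higher and 29.5% lower. In each comparison the share of the set called was below the share of all genes. The median log2 fold change over the 35 genes was -0.09 in KO1 against Ctrl, -0.28 in KO2 against Ctrl and -0.21 in KO2 against KO1, and over all tested genes it was -0.00167, -0.03 and -0.02. Both comparisons with Ctrl share the same 3 Ctrl libraries, so they are not independent of each other. With 10 DESeq2 calls in KO1 against Ctrl, and 11 edgeR calls without KO1 replicate 2, the KO1 count depended on the tool and on that library. The shares of all genes called in those fits are not given here, so this dependence cannot be called particular to the set.

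**Figure D1:**
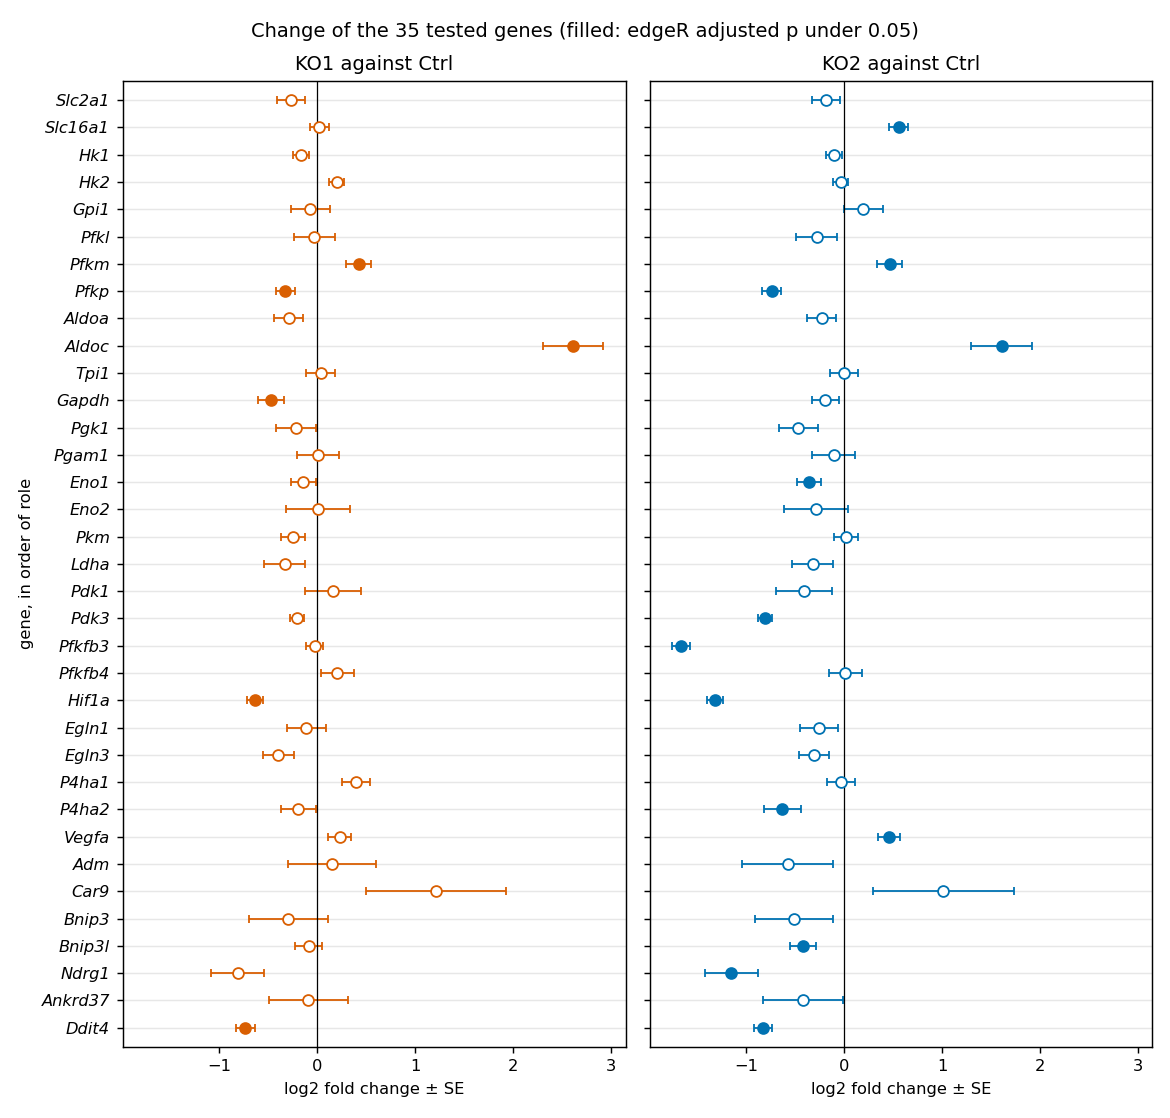
Log2 fold change with its standard error (x axis) of the 35 tested genes, ordered by role, in KO1 against Ctrl (left) and KO2 against Ctrl (right). Filled circles passed an edgeR adjusted p of 0.05. Aldoc lies farthest to the right in both panels, and Pfkfb3 and Hif1a farthest to the left in KO2.

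Most of the pathway's steps were run by genes of very high level, and few of those were called. By FPKM, the enzymes of the later steps led. Pyruvate kinase, Pkm, averaged 905 ± 168 FPKM in KO1, 1015 ± 77.8 in KO2 and 1057 ± 70.5 in Ctrl (SD, n = 3 each), and was at rank 40 of all genes in Ctrl. Aldolase A, Aldoa, was at rank 67 there, lactate dehydrogenase A, Ldha, at rank 84, enolase 1, Eno1, at rank 85 and phosphoglycerate kinase, Pgk1, at rank 112. The 17 enzyme genes from the hexokinases to lactate dehydrogenase together carried between 0.904% and 1.34% of all FPKM in KO1, 0.848% and 1.08% in KO2, and 1.12% and 1.35% in Ctrl. The first step was far lower, with the hexokinases Hk1 and Hk2 at 39.1 and 24.2 FPKM in KO1, 37.9 and 19.1 FPKM in KO2, and 43.0 and 20.7 FPKM in Ctrl. Gpi1, the gene of the next step, averaged 203 FPKM in KO1, 226 in KO2 and 209 in Ctrl. Of the 17 genes, Ldhb was too low to test.

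**Figure D2:**
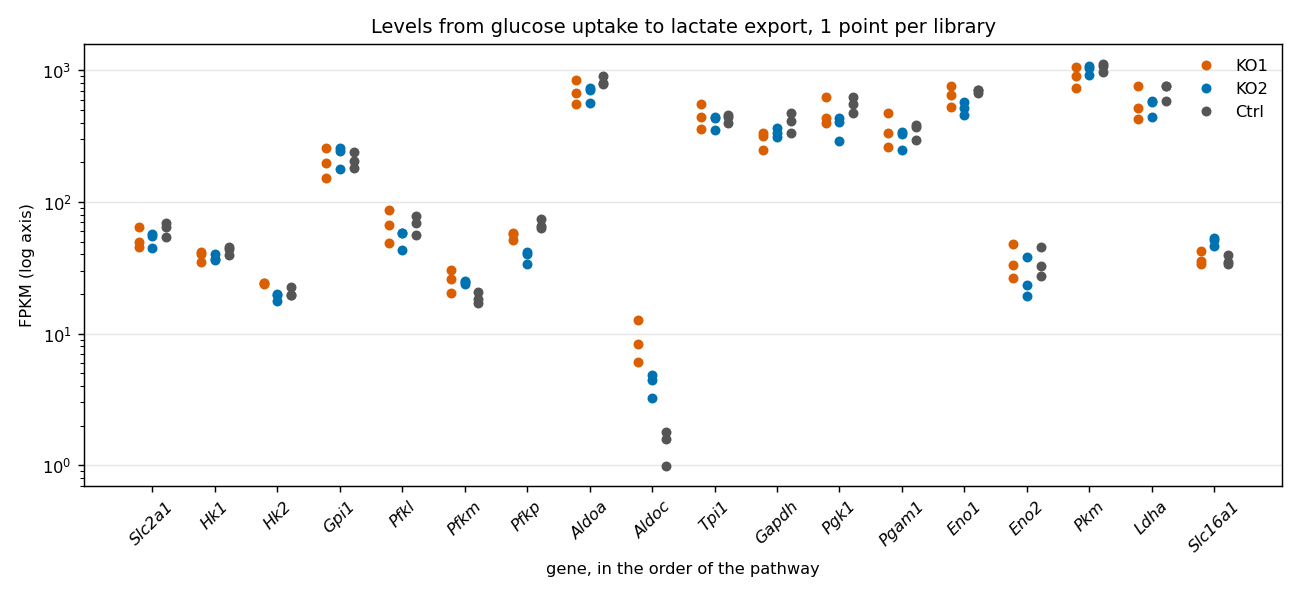
FPKM on a log axis for 18 genes from glucose uptake to lactate export, 1 point per library, with KO1, KO2 and Ctrl side by side for each gene. Pkm has the highest mean in every group, Aldoc the lowest, and Aldoc is the gene whose 3 groups lie farthest apart.

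At the ends of the pathway, the glucose transporter gene Slc2a1 (GLUT1) averaged 131 ± 25.1 CPM in KO1, 139 ± 18.6 in KO2 and 157 ± 18.9 in Ctrl (SD, n = 3 each), and was called in no comparison. Slc16a1, which encodes the lactate transporter MCT1 (chromosome 3, 104638664 to 104658462), had 181, 145 and 152 CPM in KO1, 235, 212 and 245 CPM in KO2, and 148, 174 and 149 CPM in Ctrl. All KO2 libraries lay above all others, while KO1 and Ctrl overlapped. It rose in KO2 (log2 fold change 0.56 ± 0.0985, SE, edgeR adjusted p = 0.000681) and not detectably in KO1 (0.02, edgeR adjusted p = 0.891), and KO2 exceeded KO1 (0.53 ± 0.0985, edgeR adjusted p = 0.000855). The hypoxia-induced lactate exporter MCT4 of many other tumour cells is encoded by Slc16a3, which was near 0 here. Slc16a1 made up 99.85% or more of the summed FPKM of Slc16a1, Slc16a3 and Slc16a7 in each of the 9 libraries.

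Phosphofructokinase catalyses the committed step of glycolysis, and of its 3 genes Pfkp fell and Pfkm rose in both knockout lines. Pfkp, the platelet form (chromosome 13, 6579874 to 6649060), was at 197, 228 and 219.8 CPM in KO1, at 141, 172 and 171 CPM in KO2, and at 251, 264 and 293 CPM in Ctrl. The 3 groups did not overlap, with KO2 lowest. Its log2 fold change was -0.33 ± 0.0945 in KO1 (SE; edgeR adjusted p = 0.0226), -0.74 ± 0.0951 in KO2 (edgeR adjusted p = 6.74e-05) and -0.41 ± 0.0948 in KO2 against KO1 (edgeR adjusted p = 0.00343). Leaving out 1 library at a time gave -0.38 to -0.26 in KO1, and the call was lost in 3 of those 9 fits (Ctrl replicate 3 and KO1 replicates 1 and 3). Pfkm, the muscle form, averaged 70.5 ± 13.9 CPM in KO1, 72.7 ± 2.86 in KO2 and 52.7 ± 4.77 in Ctrl (SD, n = 3 each). It rose by 0.42 ± 0.126 in KO1 (log2, SE; edgeR adjusted p = 0.0263) and by 0.46 ± 0.126 in KO2 (edgeR adjusted p = 0.0093). The KO1 value ran from 0.27 to 0.56 over those fits, the call was lost on omission of Ctrl replicates 1 or 2 or of KO1 replicates 2 or 3, and 1 KO1 library, at 56.4 CPM, lay within the Ctrl range. The KO1 call was also lost with only KO1 and Ctrl in the fit. The liver form Pfkl, at 243 ± 70.3 CPM in KO1, 205 ± 33.1 in KO2 and 249 ± 38.3 in Ctrl, was called in no comparison (KO1 -0.03 ± 0.210 and KO2 -0.28 ± 0.210 on the log2 scale). Exons of Pfkp overlap those of Pitrm1 on the other strand, and exons of Pfkm those of Senp1, and the sources used here do not say that strand was used in counting, so reads of these pairs cannot be told apart.

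Upstream of phosphofructokinase, hexokinase 1, Hk1, had a log2 fold change of -0.17 ± 0.0834 in KO1 and -0.10 ± 0.0834 in KO2 (SE), and the glucose phosphate isomerase gene Gpi1 of -0.07 ± 0.198 and 0.19 ± 0.198, and neither was called anywhere. Hexokinase 2, Hk2, the inducible form that commits glucose to the cell, was at 100.3, 115 and 114 CPM in KO2, against 127, 129 and 129 CPM in KO1. It was lower in KO2 than in KO1 (-0.23 ± 0.0766, log2, SE, edgeR adjusted p = 0.0252). That call was lost without KO1 replicate 2 or 3 or KO2 replicate 1 (range -0.26 to -0.17), and also with no filter on low counts. Against Ctrl, at 106, 108 and 122 CPM, its log2 fold changes of 0.20 in KO1 and -0.03 in KO2 did not pass.

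Among the 9 tested genes from aldolase to pyruvate kinase, 2 were called in KO1 and 2 in KO2, or 22.2% in each. Of all tested genes, 30.5% were called in KO1 and 54.1% in KO2. Aldoc, the brain-type aldolase that HIF-1 also induces (chromosome 11, 78323073 to 78327781), had 15.4, 32.6 and 21.2 CPM in KO1, 8.91, 13.3 and 12.3 CPM in KO2, and 4.12, 2.62 and 4.62 CPM in Ctrl. The groups did not overlap, and KO1 was highest. It rose 6.10-fold in KO1 (log2 2.61 ± 0.307, SE; edgeR adjusted p = 0.000187) and 3.05-fold in KO2 (1.61 ± 0.307; edgeR adjusted p = 0.00166). In KO1 this was the largest called change of the set. KO2 was below KO1 (-1.001 ± 0.283; edgeR adjusted p = 0.0135), but not called without KO2 replicate 1, and at -0.65 without KO1 replicate 2. Even so, Aldoc made up 1.26 ± 0.211% of aldolase FPKM in KO1, 0.617 ± 0.0535% in KO2 and 0.173 ± 0.0411% in Ctrl (SD, n = 3 each), the rest being Aldoa. Its promoter window, printed above, holds 1 GCGTG, as does the window of its other listed start.

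Gapdh, the glyceraldehyde-3-phosphate dehydrogenase often used as a reference gene, was at 309, 419.5 and 389 CPM in KO1, 418, 488 and 452 CPM in KO2, and 601, 429 and 520.1 CPM in Ctrl. The KO1 libraries all lay below Ctrl, by a narrow margin, whereas KO2 overlapped Ctrl. It fell in KO1 by 0.47 ± 0.135 (log2, SE; edgeR adjusted p = 0.0217), while the value of -0.19 in KO2 did not pass (edgeR adjusted p = 0.253). The KO1 call rested on Ctrl replicates 1 and 3 and KO1 replicate 1, each of whose omission ended it (range -0.59 to -0.35), and it was also lost with only KO1 and Ctrl in the fit and with the replicate number as a block. Gapdh has 78 near-identical copies in the annotation, 75 of them pseudogenes. The tables list 2 of these, at no more than 0.21 FPKM, against 250.08 FPKM or more for Gapdh itself. Eno1 was at 851, 953 and 1087 CPM in KO2, against 1248, 1202 and 1250.3 CPM in Ctrl. It fell in KO2 by 0.36 ± 0.124 (log2, SE, edgeR adjusted p = 0.0317), but the call was lost without Ctrl replicate 1, 2 or 3 and without KO2 replicate 1 or 2 (-0.45 to -0.27). With no filter on low counts it was lost as well. The tables list a near-identical copy, Eno1b, at up to 391.73 FPKM, and with its counts added to those of Eno1 the KO2 value was -0.38. The triose isomerase Tpi1, Pgk1, the phosphoglycerate mutase Pgam1, the neuronal enolase Eno2, Pkm, Aldoa and Ldha were called in no comparison. Tpi1 and Pgam1 lay closest to Ctrl, with log2 fold changes of 0.03 ± 0.145 and 0.00325 ± 0.216 in KO1 (SE) and of -0.00236 ± 0.145 and -0.11 ± 0.216 in KO2. For Aldoa the values were -0.29 ± 0.147 in KO1 and -0.23 ± 0.147 in KO2, for Pkm -0.25 ± 0.122 and 0.02 ± 0.122, and for Eno2 0.01 ± 0.327 and -0.29 ± 0.328. Pgk1 was nearest to a call, at -0.47 ± 0.202 in KO2 (edgeR adjusted p = 0.0764), and passed in 7 of the alternatives. For Ldha, at 668, 1198 and 807 CPM in KO1, 747, 958 and 996 in KO2, and 1217, 940.4 and 1213 in Ctrl, the 3 groups overlapped.

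Of all 35 genes, Pfkfb3 differed most between the knockout lines. Its enzyme makes fructose 2,6-bisphosphate, the strongest activator of phosphofructokinase, and the gene is a HIF-1 target (chromosome 2, 11471430 to 11554071). It was at 109.7, 92.9 and 112 CPM in KO1, at 30.6, 36.7 and 33.8 CPM in KO2, and at 104, 105 and 112 CPM in Ctrl. All KO2 libraries were low, and KO1 lay on Ctrl. The log2 fold change was -1.66 ± 0.0923 in KO2 (SE; edgeR adjusted p = 7.88e-08), -0.03 in KO1 (edgeR adjusted p = 0.849) and -1.63 ± 0.0922 in KO2 against KO1 (edgeR adjusted p = 8.57e-08). Its printed window holds 1 ACGTG. The window of its other listed start, not printed, holds 1 CACGTG, which counts as ACGTG on each strand, and 1 GCGTG. Pfkfb4, a second isoform induced by HIF-1, was low at 2.67, 2.17 and 2.27 FPKM in KO1, KO2 and Ctrl and was not called.

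Pyruvate dehydrogenase kinases inhibit pyruvate dehydrogenase and so keep pyruvate from being oxidised in mitochondria. Pdk3 was at 40.4, 44.0 and 41.1 CPM in KO1, at 26.3, 27.6 and 28.9 CPM in KO2, and at 49.4, 45.5 and 50.0 CPM in Ctrl. The 3 groups did not overlap. It fell in KO2 (-0.81 ± 0.0746, log2, SE; edgeR adjusted p = 4.95e-06), also relative to KO1 (-0.60 ± 0.0746; edgeR adjusted p = 4.89e-05), and missed the threshold in KO1 (-0.21; edgeR adjusted p = 0.0517). Pdk1, the classical HIF-1 target of the family, averaged 165 ± 50.3 CPM in KO1, 111 ± 34.3 in KO2 and 147 ± 30.9 in Ctrl (SD, n = 3 each) and was not called. Its replicates differed by up to 1.91-fold within a group.

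**Figure D3:**
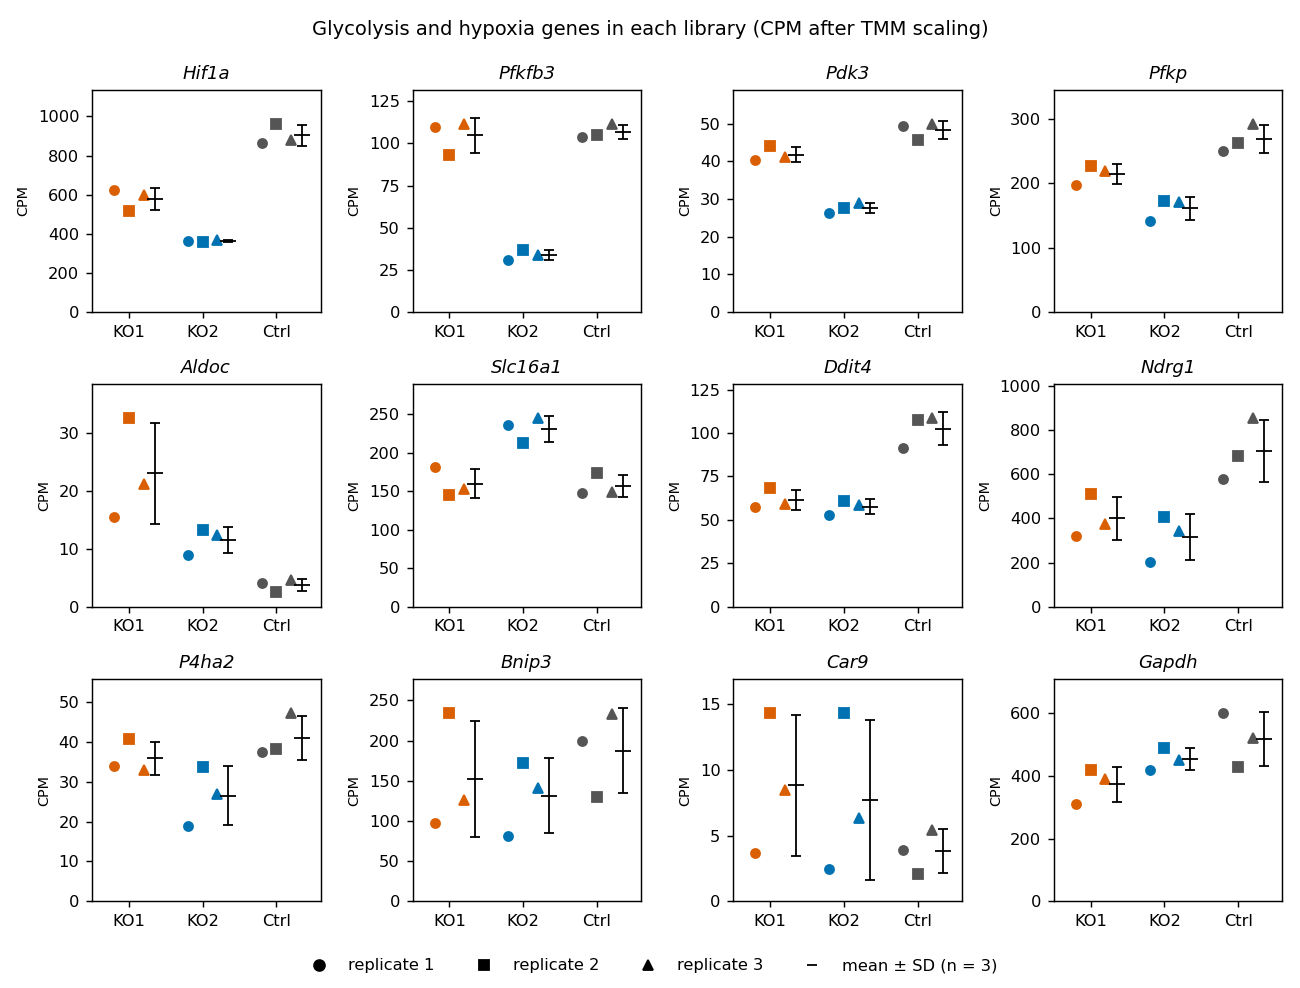
CPM of 12 genes in each library of KO1, KO2 and Ctrl, with replicates 1 to 3 as circle, square and triangle, and the mean and SD beside them. For Hif1a, Pfkfb3 and Pdk3 the replicates of a group lie close together, whereas for Ndrg1, P4ha2, Bnip3 and Car9 replicate 1 is lowest in KO2 and replicate 2 highest in both knockout lines.

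Hif1a itself was lower in both knockout lines. Its level was 627, 516 and 596 CPM in KO1, 363, 358 and 366 CPM in KO2, and 864, 964 and 881 CPM in Ctrl (chromosome 12, 73901324 to 73947554). The groups did not overlap, and the KO2 replicates lay within 1.02-fold of each other. The log2 fold change was -0.64 ± 0.0792 in KO1 (SE; edgeR adjusted p = 0.000128), -1.32 ± 0.0803 in KO2 (edgeR adjusted p = 1.68e-07) and -0.68 ± 0.0794 in KO2 against KO1 (edgeR adjusted p = 3.09e-05). All 3 calls were kept in each alternative analysis that was run. The 2 hydroxylases of the set that mark HIF-1 alpha for destruction, Egln1 and Egln3, were called in no comparison. Egln1, the main oxygen sensor of most cells, averaged 77.3 ± 21.3 CPM in KO1, 70.0 ± 9.54 in KO2 and 83.5 ± 14.5 in Ctrl (SD, n = 3 each). Egln3, itself a HIF target, averaged 217 ± 45.2 CPM in KO1, 230.3 ± 32.7 in KO2 and 285 ± 38.0 in Ctrl (SD, n = 3 each).

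Targets of HIF outside glycolysis did not move as a block. Ddit4 (REDD1), an inhibitor of mTORC1 that several stresses induce, had 57.2, 68.2 and 59.4 CPM in KO1, 53.1, 61.0 and 58.8 CPM in KO2, and 91.4, 107 and 109 CPM in Ctrl. Every knockout library was below every Ctrl library. It fell by 0.73 ± 0.0945 in KO1 (log2, SE; edgeR adjusted p = 0.000171) and by 0.83 ± 0.0949 in KO2 (edgeR adjusted p = 2.72e-05), and the knockout lines were not told apart (-0.10 ± 0.0948). Ndrg1, a stress gene and a strong hypoxia marker, had 319, 509 and 374 CPM in KO1, 203, 404 and 343 CPM in KO2, and 577, 683 and 854 CPM in Ctrl. Here too all knockout libraries were below Ctrl, with wide spread. It fell in KO2 (-1.15 ± 0.273; edgeR adjusted p = 0.00694), while the change in KO1 missed the threshold (-0.81 ± 0.271; edgeR adjusted p = 0.0517) and passed it in 9 of the alternatives, DESeq2 and limma among them.

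Vegfa, the main angiogenic growth factor under HIF control, moved the other way. It was at 254, 324 and 261 CPM in KO2, against 175, 202 and 234 CPM in Ctrl, and rose by 0.46 ± 0.115 in KO2 (log2, SE; edgeR adjusted p = 0.00604). KO1, at 230.2, 251 and 234 CPM, overlapped Ctrl and was not called (0.23; edgeR adjusted p = 0.161). The vasodilator peptide gene Adm and the carbonic anhydrase gene Car9, which acidifies the surroundings of hypoxic cells, were called nowhere. The log2 fold changes of Adm were 0.15 ± 0.450 in KO1 and -0.58 ± 0.461 in KO2 (SE). For Car9 they were 1.21 ± 0.714 in KO1 and 1.01 ± 0.718 in KO2, both with a wide error.

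The mitophagy receptors Bnip3 and Bnip3l averaged 153 ± 72.1 and 293 ± 52.2 CPM in KO1, 131 ± 46.4 and 233 ± 29.3 CPM in KO2, and 188 ± 53.2 and 312 ± 34.1 CPM in Ctrl (SD, n = 3 each). Bnip3l fell in KO2 (-0.42 ± 0.135, log2, SE; edgeR adjusted p = 0.0216), a call that ended on omission of Ctrl replicates 1 or 3 or of KO2 replicate 1 (range -0.51 to -0.32), and Bnip3 was not called. Ankrd37, a small ankyrin-repeat gene induced by HIF-1, averaged 7.51 ± 3.27 CPM in KO1, 5.99 ± 2.86 in KO2 and 8.00 ± 2.67 in Ctrl and was not called. Collagen prolyl hydroxylases, which stabilise the collagen triple helix, gave 1 call against Ctrl. P4ha2 was at 34.0, 40.6 and 32.9 CPM in KO1, 18.9, 33.6 and 27.0 CPM in KO2, and 37.4, 38.3 and 47.2 CPM in Ctrl. KO2 lay wholly below Ctrl and KO1 did not (KO2 -0.63 ± 0.184, log2, SE; edgeR adjusted p = 0.015), and without Ctrl replicate 3 the value was -0.43 and no longer called. P4ha1 was lower in KO2, at 127, 189 and 166 CPM, than in KO1, at 202, 242 and 205 CPM (-0.43 ± 0.142; edgeR adjusted p = 0.0256). Without KO2 replicate 1 that difference was -0.28 and was not called, and it was also lost without KO1 replicate 2 or KO2 replicate 3.

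Within each group, the genes of the set rose and fell together from library to library. KO1 replicate 2 was the highest of its group for 32 of the 35 genes, where it was highest for 40.0% of all tested genes. KO1 replicate 1 was the lowest for 31 (39.9% of all genes). KO2 replicate 1 was the lowest of its group for 33 (31.2% of all genes), with Slc16a1 and Hif1a as the exceptions. Ctrl replicate 3 was the highest for 31 (25.3% of all genes) and Ctrl replicate 2 the lowest for 23 (37.8% of all genes). The median standard deviation of log2 CPM within a group was 0.291 for the set in KO1, 0.205 in KO2 and 0.186 in Ctrl, against 0.147, 0.0903 and 0.120 over all tested genes.

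The swing was widest in some targets of HIF outside glycolysis, and narrow in others. Between the highest and lowest KO1 library, Vegfa differed 1.09-fold and Ddit4 1.19-fold, against a median of 1.49-fold over the set. The aldolase gene Aldoc, at 2.10-fold in KO1, varied more than Adm, at 1.98-fold. Car9, Adm and Ankrd37 were also genes of low level, at no more than 17.9 CPM in any library. Car9 had 3.67, 14.3 and 8.45 CPM in KO1, 2.46, 14.3 and 6.32 CPM in KO2, and 3.94, 2.08 and 5.44 CPM in Ctrl. Its highest library exceeded its lowest 3.83-fold in KO1, 5.65-fold in KO2 and 2.54-fold in Ctrl. Bnip3 had 98.1, 235 and 126 CPM in KO1, 81.0, 172 and 141 CPM in KO2, and 199.5, 129 and 234 CPM in Ctrl. Adm (8.96, 17.9 and 10.8 CPM in KO1) and Ankrd37 (4.68, 11.1 and 6.77 CPM in KO1) peaked in the same KO1 library as Car9 and Bnip3. By contrast, Hif1a and Pfkfb3 were lowest in that library, and Slc16a1 too. The exons of Ankrd37 overlap those of Lrp2bp and Ufsp2 on the other strand. In all, 13 genes of the set have such an overlap, the others being Slc2a1, Hk1, Gpi1, Pfkm, Pfkp, Aldoa, Tpi1, Gapdh, Hif1a, Car9, Bnip3 and Ndrg1, and the limit given above for Pfkp and Pfkm holds for each of them. Hif1a, Pfkm and Pkm also overlap an annotated gene on the same strand.

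**Figure D4:**
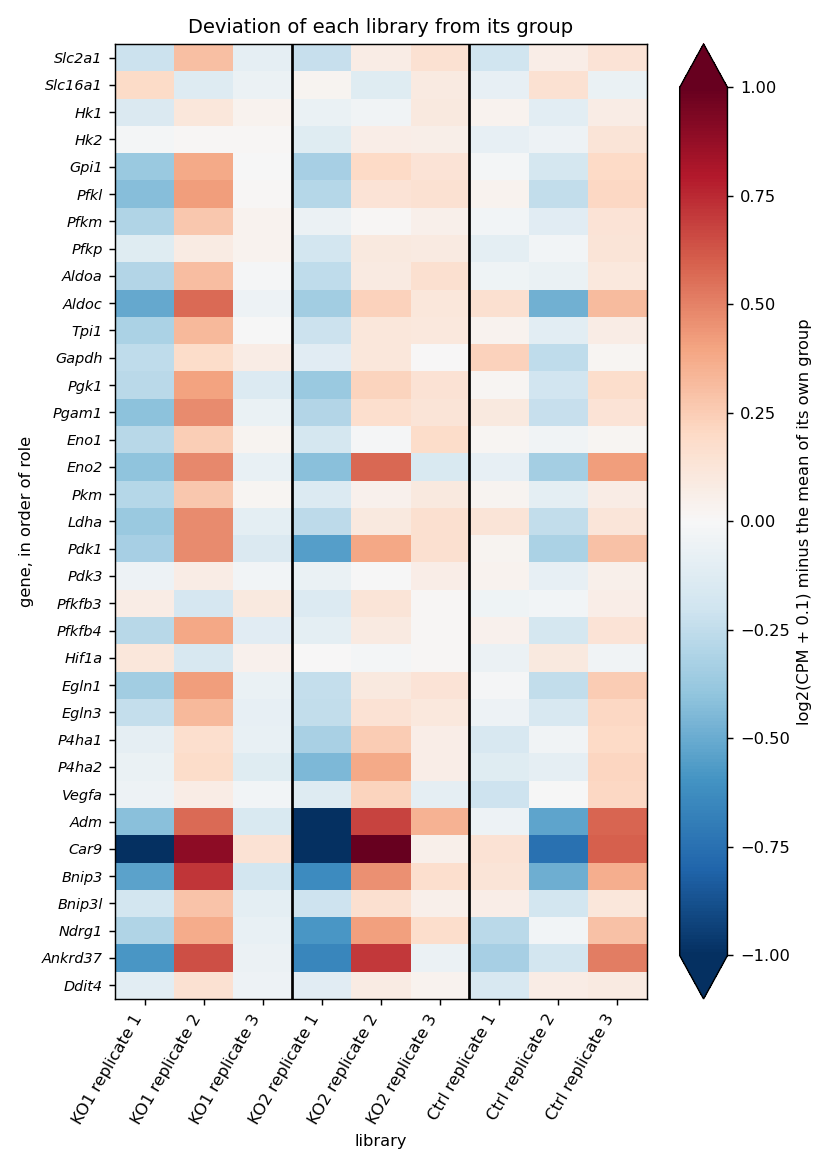
Each cell shows log2(CPM + 0.1) of a gene in a library minus the mean of that library's own group, for KO1, KO2 and Ctrl replicates from left to right. KO1 replicate 2 and Ctrl replicate 3 are mostly red, above their group, and KO1 replicate 1 and KO2 replicate 1 mostly blue.

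Other hypoxia-induced genes showed the same libraries as extremes. Among 31 tested genes of a separate list, KO1 replicate 2 was highest for 25, KO2 replicate 1 lowest for 26 and Ctrl replicate 3 highest for 27. Of 9 tested genes of the pyruvate dehydrogenase complex and its regulators, those numbers were 2, 2 and 2. Of 8 tested pentose phosphate genes they were 6, 2 and 1, so that list shared the KO1 extreme. The labels give no batch, harvest or density that would set these libraries apart, and the source of the swing was not tested. Leaving out KO1 replicate 2 raised the KO1 calls from 6 to 11, of which 10 were lower than in Ctrl. The added ones were Slc2a1 (-0.44), Aldoa (-0.46), Pkm (-0.40), Ldha (-0.61), Pdk3 (-0.25) and Egln3 (-0.58), and Pfkm was no longer called. Between the knockout lines, the same omission gave 4 genes higher in KO2 than in KO1 (Slc16a1, Gpi1, Gapdh and Pkm) and 5 lower, in place of 1 and 7. Without KO2 replicate 1, 5 genes differed between the lines, 1 higher and 4 lower in KO2. With all 9 libraries, 30.5% of all tested genes were called in KO1 against Ctrl and 55.0% in KO2 against KO1. The shares without these libraries are not given here, so these changes in count cannot be called particular to the set.

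Shares within enzyme families, computed from FPKM, showed which isoform carried a step. They were not tested, since an exact permutation test of 3 against 3 libraries cannot go below 0.10. Pfkp made up 37.9 ± 4.61% of phosphofructokinase FPKM in KO1, 33.3 ± 0.418% in KO2 and 44.1 ± 2.83% in Ctrl (SD, n = 3 each), and Pfkm 17.2 ± 0.203%, 21.3 ± 1.91% and 12.1 ± 0.196%. The Pfkm shares of the 3 groups did not overlap. Pfkfb3 held 67.3 ± 7.03% of its family in KO1, 37.5 ± 1.86% in KO2 and 70.3 ± 2.85% in Ctrl. In KO2 most of the remainder lay with Pfkfb2 at 28.2 ± 1.56% and Pfkfb1 at 21.9 ± 1.14%. P4ha1 held 76.7 ± 0.402% of the collagen prolyl hydroxylase alpha subunits in KO1, 77.3 ± 1.53% in KO2 and 67.8 ± 0.756% in Ctrl. Both knockout lines lay above Ctrl. Pdk2 held 6.50 ± 0.346% of the kinase family in KO1, 12.6 ± 3.36% in KO2 and 6.86 ± 0.520% in Ctrl. Shares of expected counts, which favour long transcripts, differed from these by more than the replicate spread in 50 of 69 combinations of isoform and group.

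**Figure D5:**
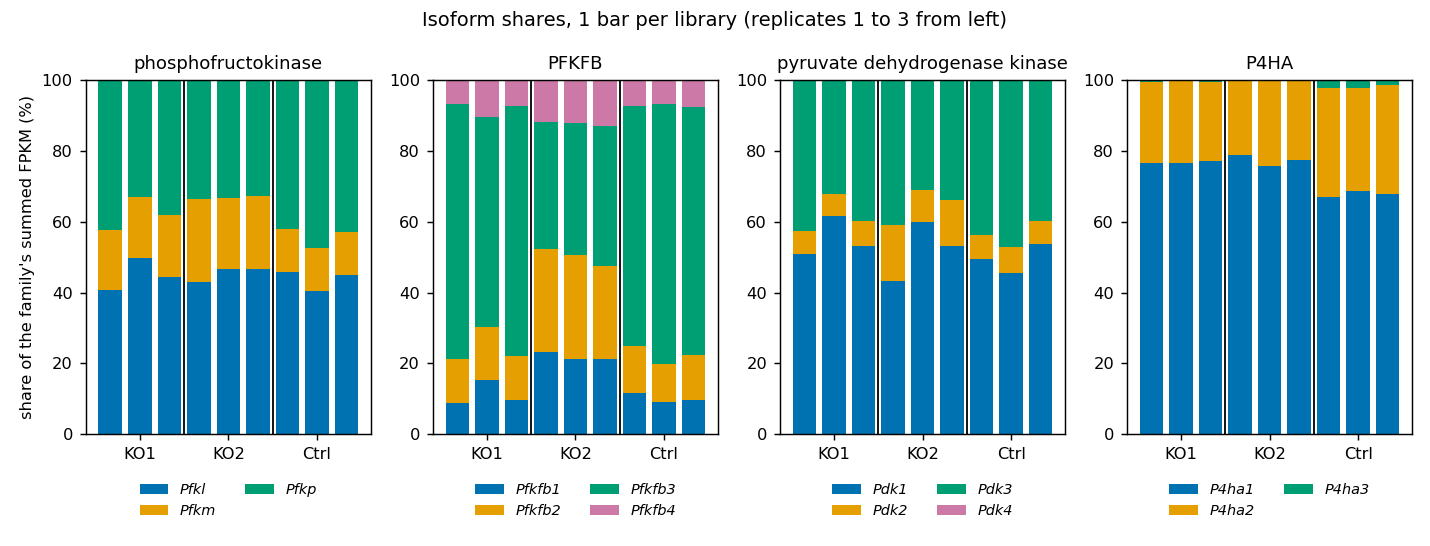
Share of the summed FPKM of 4 families (phosphofructokinase, PFKFB, pyruvate dehydrogenase kinase, collagen prolyl hydroxylase alpha subunits) held by each isoform, 1 bar per library, with KO1, KO2 and Ctrl from left to right. The Pfkfb3 share is 35.7% to 39.5% in KO2 and 59.2% or more in every other library.

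Genes around the set were read from lists of pathway members, against a background of 30.5% of all tested genes called in KO1 and 54.1% in KO2. Of 9 tested isoforms of glycolytic enzymes outside the set, 0 were higher and 1 lower in KO1 (median log2 fold change -0.15), and 2 were higher and 2 lower in KO2 (-0.07). The muscle enolase Eno3 fell by 0.94 ± 0.0606 in KO1 (log2, SE; edgeR adjusted p = 8.41e-07) and by 0.15 ± 0.0598 in KO2 (edgeR adjusted p = 0.0485), and D-lactate dehydrogenase, Ldhd, rose by 0.74 ± 0.0966 in KO2 (edgeR adjusted p = 7.46e-05). Of 7 transport genes, 1 was higher and 2 lower in KO1 (median 0.00257), and 2 were higher and 3 lower in KO2 (-0.32). Mpc1, a subunit of the carrier that brings pyruvate into mitochondria, had 31.9, 31.5 and 30.3 CPM in KO1, 23.5, 22.8 and 23.4 CPM in KO2, and 41.8, 41.7 and 36.0 CPM in Ctrl. The groups did not overlap, and it fell by 0.35 in KO1 (edgeR adjusted p = 0.00559) and by 0.78 in KO2 (edgeR adjusted p = 1.08e-05). The urate and sugar transporter gene Slc2a9 rose in both lines (0.26 and 0.82), and Slc2a8 in KO2 (0.68). The pyruvate dehydrogenase list gave 3 lower and 0 higher genes of 9 in KO1 (median -0.11), and 4 lower and 1 higher in KO2 (-0.06). The shared E3 subunit Dld fell by 0.47 in KO1 and by 0.41 in KO2, and Pdpr, the regulatory subunit of the phosphatase, by 0.32 and by 0.68. Of 8 pentose phosphate genes, 0 were higher and 2 lower in KO1 (median -0.02), and 3 were higher and 2 lower in KO2 (0.15), with the entry enzyme G6pdx higher in KO2 (0.53 ± 0.106; edgeR adjusted p = 0.00159), transaldolase, Taldo1, lower in KO1 (-0.48) and KO2 (-0.64), and H6pd, the enzyme of the endoplasmic reticulum, lower in KO2 (-1.08).

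Among 14 genes of HIF subunits and oxygen sensing, 1 was higher and 1 lower in KO1 (median -0.02), and 2 were higher and 2 lower in KO2 (-0.00929). Vhl, the ubiquitin ligase subunit that recognises hydroxylated HIF, had 15.6, 16.8 and 16.3 CPM in KO2, against 24.5, 23.8 and 29.2 CPM in Ctrl, and fell by 0.67 ± 0.0956 (log2, SE; edgeR adjusted p = 0.000144). Cited2, which competes with HIF-1 alpha for its coactivators, fell in KO1 (-0.45) and KO2 (-0.69), Arnt, the constant partner of HIF-1 alpha, rose in KO1 (0.26), and Egln2 rose in KO2 (0.47). Of the 31 other hypoxia-induced genes, 4 were higher and 5 lower in KO1 (median 0.03), and 4 were higher and 16 lower in KO2 (median -0.28). Those 9 and 20 genes called compare with 30.5% of all tested genes in KO1 and 54.1% in KO2 (24.6% higher and 29.5% lower), whose medians were -0.00167 and -0.03. Nos2, the inducible nitric oxide synthase, was at 0.131, 0.339 and 0.136 CPM in KO2, against 107, 163 and 137 CPM in KO1 and 78.1, 57.7 and 114 CPM in Ctrl (KO2 against Ctrl -8.67 ± 0.443; edgeR adjusted p = 3.85e-07). Gbe1, the glycogen branching enzyme, went the other way, at 92.0, 128 and 114 CPM in KO2, against 30.4, 23.0 and 38.6 CPM in Ctrl (1.86 ± 0.237; edgeR adjusted p = 0.000154). The paired repressors Bhlhe40 and Bhlhe41 moved apart in both lines, Bhlhe40 at -0.81 and -1.13 and Bhlhe41 at 1.14 and 0.73 in KO1 and KO2.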

How the data were processed

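RNA of 9 libraries was sequenced on the BGI platform, per the labels. HISAT and RSEM and the builds mm10 and GRCm38 are named in the submitters' processing notes, without versions, and whether strand was used is not given in the sources used here. The deposited tables hold an expected count per gene, which the authors did not normalise, and FPKM, corrected by the authors for transcript length and depth. The lowest FPKM listed is 0.01, and a gene missing from a library was taken as 0. Groups follow the sample titles; the design text names the sixth and ninth samples differently.

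Expected counts were rounded to whole numbers and tested in edgeR 4.0.16 (R 4.3.3; filterByExpr by group, TMM, robust quasi-likelihood fit) with all 9 libraries in 1 fit, 6 residual degrees of freedom and Benjamini-Hochberg adjustment over 13682 genes. Standard errors are approximate, from each log2 fold change and its F statistic. Filters and fit were tested on simulated data. Alternatives were other scalings and filters, DESeq2 1.42.0, limma 3.58.1 (voom, and log2(FPKM + 1) or log2(FPKM + 0.1)), omission of each library, a block for the replicate number, fits of 2 groups alone, stricter thresholds, and, chosen after seeing the data, Eno1b added to Eno1. The members, lists and tests were chosen with earlier results of these data known. All 37 members are named, with values per library for those called at an absolute log2 fold change of at least 0.5 and for Hif1a and Gapdh, and up to 3 called genes of at least 5 CPM per list and contrast. A few further members are given per library, chosen after their values were seen. Copies are GENCODE transcripts of at least 95% identity over at least 200 bases, and exon overlaps are from the GENCODE annotation. The precision is limited by 3 libraries per group.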

Additional observations from a re-analysis of the deposited data

Results flagged for a closer look

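For 8 of the 35 tested genes, KO1 and KO2 differed in the direct test between them (edgeR adjusted p under 0.05, Ctrl not involved), where 55.0% of all tested genes did. The log2 fold change of KO2 against KO1 was -1.63 for Pfkfb3, -1.001 for Aldoc, -0.68 for Hif1a, -0.60 for Pdk3, -0.43 for P4ha1, -0.41 for Pfkp, -0.23 for Hk2 and 0.53 for Slc16a1. Slc16a1 was higher in all 3 KO2 libraries than in all 3 KO1 libraries, and the other 7 were lower in all 3. Hif1a and Pfkp were lower in KO2 than in KO1 and lower in both than in Ctrl, Aldoc was higher in both than in Ctrl, and for Pfkfb3, Pdk3 and Slc16a1 a call against Ctrl was made in KO2 and not in KO1. The differences of Hk2, Aldoc and P4ha1 were not called in at least 1 fit that left out a library. Malat1 was higher in KO2 than in KO1, and its part in these differences was not tested.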

How the results depend on the processing

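The main counts were 6, 13 and 8 genes called in KO1 against Ctrl, KO2 against Ctrl and KO2 against KO1. Of all tested genes, 30.5%, 54.1% and 55.0% were called in that fit. The shares of all genes at the other settings are not given here. The changes in count below therefore cannot be called particular to the set. In KO1 against Ctrl, DESeq2 called 10, an adjusted p of 0.01 left 3 and a change of at least 1.5-fold left 3. Of the calls in KO2 against Ctrl, 8 had changed at least 1.5-fold. In KO2 against KO1, 5 passed an adjusted p of 0.01 and 4 had changed at least 1.5-fold. Leaving out each library in turn gave 4 to 11, 10 to 14 and 5 to 10 calls; the extremes beyond 1.5 times the main count were 11 without KO1 replicate 2 and 5 without KO2 replicate 1. Total count scaling, which moved the median of all genes by 0.0293, -0.077 and -0.106 (log2), gave 4 higher and 4 lower genes in KO1 against Ctrl in place of 2 and 4. With the replicate number as a block, the counts were 7, 14 and 9. Over all groups, same-number libraries did not deviate together (correlations -0.343 to 0.049 across genes, against -0.168 to 0.336 for different numbers). The numbers were therefore not taken as pairs. Between KO1 and KO2, same-number correlations were 0.0258 to 0.049, against -0.045 to 0.0135 for different numbers. Within the set, replicate 1 was lowest for 31 genes in KO1 and 33 in KO2, and replicate 2 highest for 32 and 23. In Ctrl, replicate 3 was highest for 31 and replicate 2 lowest for 23. Whether the knockout lines shared a replicate effect in the set was not tested. No called gene changed sign in any alternative. All omissions of a library together gave 945 values, of which 897 stayed on their side of the threshold, 26 lost and 22 gained a call. Of 69 mean isoform shares, 50 moved by more than the replicate spread when expected counts replaced FPKM. With 3 libraries per group, small changes in the genes with a wide swing between replicates were not detectable.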

Other observations

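The sugar-sensing genes Txnip and Arrdc4 moved in opposite directions in the knockout lines. Of 5 tested genes of a list of sugar-sensing and Myc regulators, 3 were higher and 0 lower in KO1 against Ctrl (median log2 fold change 0.35), 1 was higher and 3 lower in KO2 against Ctrl (-0.89), and 1 was higher and 4 lower in KO2 against KO1, where 30.5%, 54.1% and 55.0% of all tested genes were called. Txnip, an inhibitor of glucose uptake whose gene follows the sugar level, had 773, 666 and 696 CPM in KO1, 233, 259.8 and 247 CPM in KO2, and 449, 482 and 442 CPM in Ctrl. The 3 groups did not overlap, with KO1 above Ctrl (log2 fold change 0.64 ± 0.0750, SE, edgeR adjusted p = 9.15e-05) and KO2 below it (-0.89 ± 0.0755, edgeR adjusted p = 2.5e-06). Its paralogue Arrdc4 showed the same order, at 31.4, 16.3 and 24.1 CPM in KO1, 3.34, 3.83 and 2.79 CPM in KO2, and 7.75, 14.2 and 10.3 CPM in Ctrl (1.15 ± 0.261, edgeR adjusted p = 0.00774 in KO1, and -1.69 ± 0.289, edgeR adjusted p = 0.00077 in KO2). KO2 was below KO1 for both, by -1.53 for Txnip (edgeR adjusted p = 3.21e-08) and -2.85 for Arrdc4 (edgeR adjusted p = 2.22e-05). Mlxip, which encodes the sugar-responsive factor MondoA, rose in KO1 (0.35) and not detectably in KO2 (0.04, edgeR adjusted p = 0.68). Mlx, its binding partner, rose in KO2 (0.47, edgeR adjusted p = 0.000362). Myc, an activator of many glycolytic genes, averaged 311 ± 77.2 CPM in KO1, 144 ± 11.1 in KO2 and 375 ± 58.2 in Ctrl (SD, n = 3 each), and fell in KO2 (-1.38 ± 0.178, edgeR adjusted p = 0.000123), while KO1 was not called (-0.27, edgeR adjusted p = 0.279).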
